A study of Mus musculus with 34 samples.

Results

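Forkhead (Fox) and Sox transcription factor genes were followed in cultured mouse ependymal cells that lacked Rfx1, Rfx2 or Rfx3. All Fox genes (Fox, a letter and a number) and all Sox genes in the count table were taken, apart from Foxj1, Foxn4, Sox2 and Sox10. A gene was kept when it had at least 10 counts in 4 or more of the 34 libraries. This left 31 genes of 57 with such names and of 21647 in all, and 30 of them, 18 forkhead and 12 Sox, are described. The cells came from lateral ventricular walls of E18.5 embryos, grown ex vivo and kept for 4 days without serum. Knockouts were Rfx1-/- (4 samples), Rfx2-/- (6) and Rfx3-/- (6), and each line had its own wild-type siblings (4, 8 and 6). All groups carry the strain label C57BL/6, and every title also carries the unexplained term OF1. The labels do not say whether replicates came from separate embryos or cultures, so p-values measure the spread between these samples, which may be technical.

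Forkhead proteins bind DNA through a winged-helix domain, and their letter names a subfamily. FoxO factors are held out of the nucleus when insulin and PI3K signalling is active, FoxM1 drives mitotic genes, and FoxP factors act mainly as repressors. Sox proteins bend DNA through an HMG box and usually act with partner factors. Groups B1 and B2 (Sox3, Sox21) are known from neural progenitors, group C (Sox4, Sox11, Sox12) from immature neurons and progenitors, groups D and E (Sox5, Sox6, Sox13; Sox8, Sox9) from glial lineages, and group F (Sox7, Sox18) from endothelium. RFX proteins also carry a winged-helix domain and bind X-box motifs in promoters of ciliary genes.

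Total counts ran from 18.2 to 53.4 M per library. The targeted mRNA was lower but still present in each knockout: Rfx1 at 19.9 to 30.2 CPM (counts scaled to library size, with TMM factors) against 52.8 to 77.4, Rfx2 at 43.3 to 55.3 against 83.4 to 126, and Rfx3 at 25.2 to 51.8 against 156 to 206. The summed level of 8 multiciliated ependymal markers was 301 to 828 CPM in Rfx2 wild types and 167 to 238 in Rfx2 knockouts. In the Rfx3 line it was 708 to 851 in wild types, 523 to 588 in knockout replicates 1 to 3 and 106 to 168 in knockout replicates 4 to 6. Markers of astrocytes, oligodendrocyte precursors, microglia and meningeal cells were detected in every group. In bulk RNA, fewer cells of a type and less RNA per cell cannot be told apart.

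In wild-type cultures the levels per length spanned from 0.0164 CPM per kb of exons for Foxc2 to 85.5 ± 11.5 (SD, n = 18) for Sox9, a regulator of glial fate. Sox4 followed at 38.0 ± 3.08 CPM per kb. Foxo4, a FoxO factor, was at 16.2 to 21.2 CPM per kb over the 18 libraries. Sox21 (17.8 ± 2.17) and Foxo3 (17.4 ± 1.72) lay within an SD of each other. The same held for Foxk2 (14.7 ± 1.31) and Sox6 (14.3 ± 1.74), and for Foxj2 (11.1 ± 1.62) and Foxk1 (9.99 ± 1.24). Foxo1 was at 8.95 ± 0.466 CPM per kb. The widest ratio between line means was 3.51 for Sox3, whose mean was 2.66 CPM in Rfx2 wild types against 9.34 and 8.31 in Rfx1 and Rfx3 wild types. Foxo6 (ratio 2.86), the low genes Foxc2 (2.76) and Sox18 (2.53), Sox8 (2.01) and Foxm1 (2.0) came next, and these gaps between lines were not tested.

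**Figure D1:**
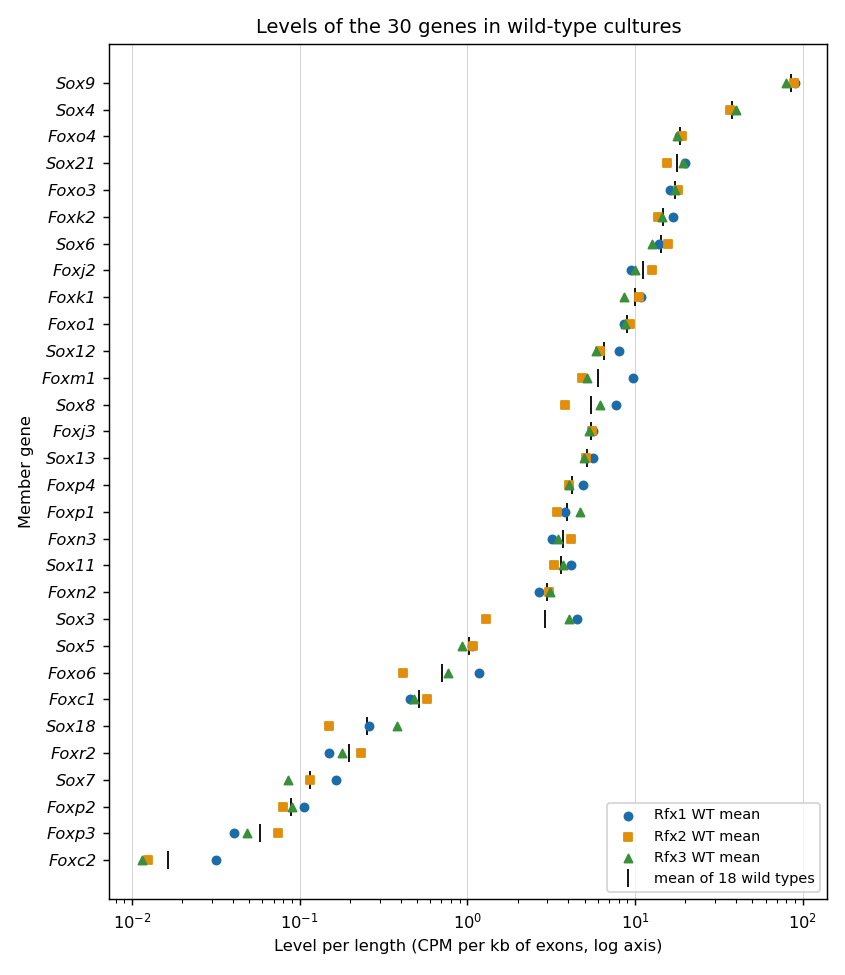
Mean level per length of each of the 30 genes (CPM per kb of exons, log axis) in wild types of the Rfx1, Rfx2 and Rfx3 lines, with the mean of all 18 wild types as a black tick. Sox9 is highest at 85.5 and Foxc2 lowest at 0.0164, and the line means of Sox3 lie farthest apart.

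The count rule set the lower edge of the set. Just inside it were Foxc2 (at least 10 counts in 4 libraries, highest 19), Sox18 (15 libraries) and Foxp3 (16 libraries). Just outside were Foxd2 (3 libraries, highest 11) and Foxd1 (2 libraries, highest 18), and the other 24 Fox and Sox genes left out had 10 counts in no library. Exons of 9 of the 30 genes overlap those of another annotated gene, on the opposite strand for 7 of them (among them Sox4, Sox8 and Foxj2). On the same strand this holds for 4, among them Foxm1, which overlaps the counted gene Tex52. Whether counting used strand is not given in the sources used here, so reads of such neighbours may be included.

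In Rfx2 knockouts the 3 group C Sox genes rose together, with Foxn3, Foxj2, Foxn2, Foxo3 and Foxp2, while Sox13 and Sox9 fell. Of the 28 genes that passed the low-count filter in this line, 8 were called higher and 2 lower by edgeR at an adjusted p below 0.05, or 35.7%. Over all genes tested, 32.3% were called (13.9% higher and 18.4% lower), so the share of called Fox and Sox genes was near the background. Their direction was 28.6% higher and 7.14% lower. The median log2 difference was 0.09 over the 28 genes and 0.01 over all genes. Foxc2 and Sox18 did not pass the filter. With replicates 1 to 3 alone 5 genes were called: Sox4, Sox11, Foxn3, Foxo3 and Foxm1. Calls over all genes were also fewer in that subset, as given at the end, so nothing particular to the set is read from this count.

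**Figure D2:**
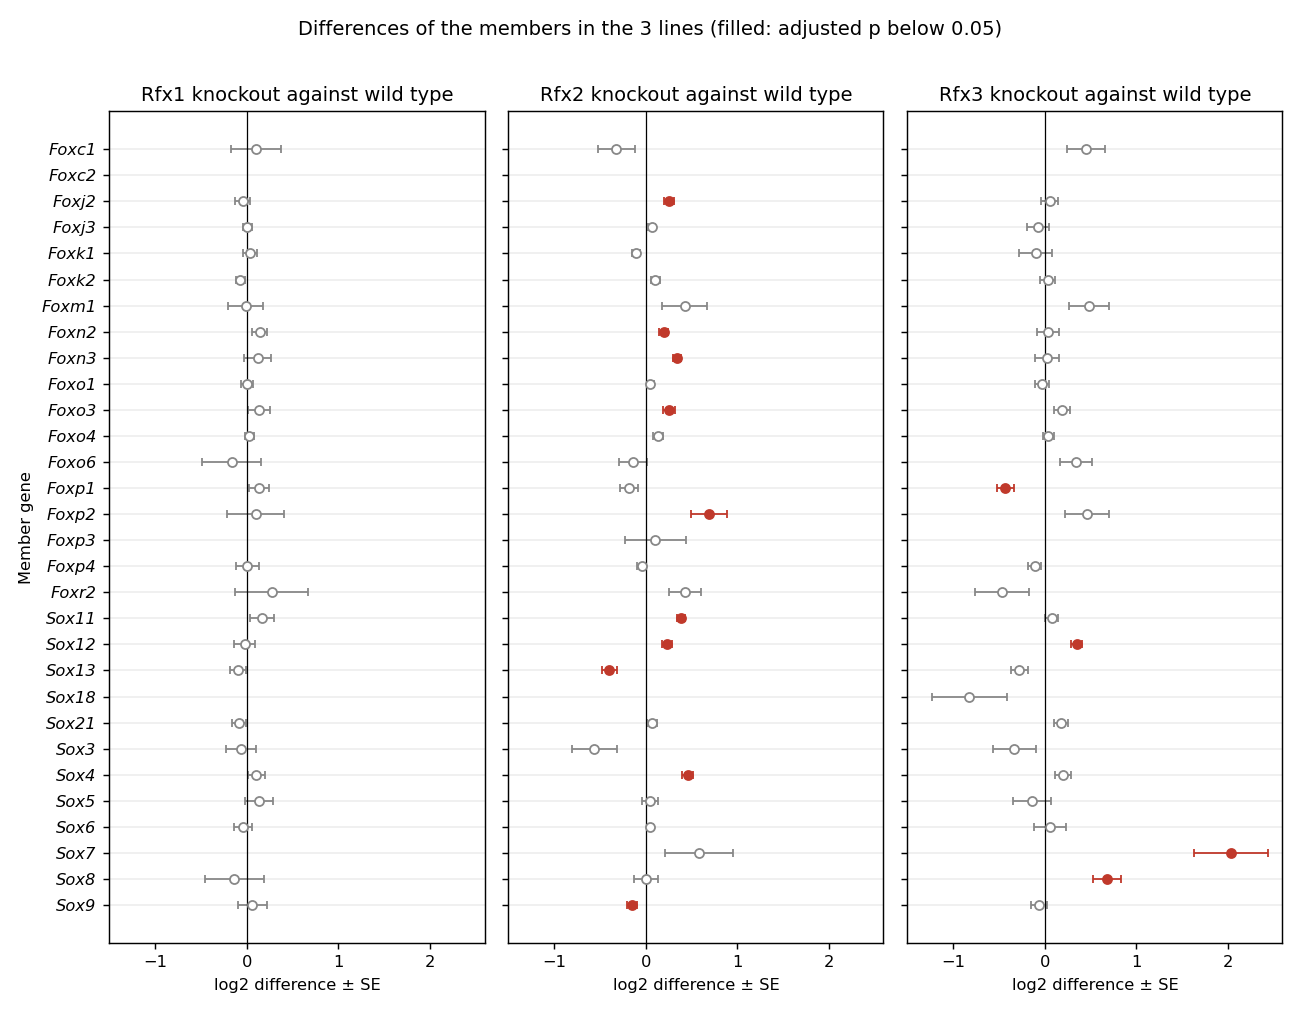
The log2 difference (knockout against wild type, x axis, ± SE) of each gene that was tested, by line; filled red points have an adjusted p below 0.05. No point is filled for Rfx1, 10 are filled for Rfx2 and 4 for Rfx3.

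Sox4 (chromosome 13, 28948919 to 28953713, GRCm38) is a single-exon group C factor of progenitors and young neurons. Its levels in Rfx2 knockouts ran from 227 to 289 CPM (median 237), against 148 to 203 (median 175) in their wild types. Every knockout lay above every wild type. The log2 difference was 0.46 ± 0.06 (SE, adjusted p = 0.000161, edgeR), higher in 6 of 6 knockouts. Sox11 (chromosome 12, 27334264 to 27342574), known for its role in neuronal maturation, was at 33.6 to 38.8 CPM (median 36.7) in knockouts and 25.4 to 29.1 (median 27.5) in wild types, again with no overlap. Its log2 difference was 0.39 ± 0.05 (adjusted p = 6.75e-05, edgeR). Sox12 (chromosome 2, 152393611 to 152398063), the weakest activator of the group, was at 30.1 to 35.9 CPM (median 33.4) against 25.6 to 31.7 (median 27.1). Here the groups overlapped in a narrow range, and the log2 difference was 0.23 ± 0.05 (adjusted p = 0.00332, edgeR). Sox4 and Sox11 kept their calls under all 24 alternatives tried. Summed neuroblast and neuron markers were at 180 to 241 CPM in these knockouts and 106 to 238 in the wild types. Most of the sum was Stmn2, at a mean of 156 CPM against 113. Of 9 tested markers 0 were called by edgeR and 2 had an unadjusted p below 0.05. Dlx1, Dlx2 and Gad1 had negative differences and the other tested markers positive ones. The part of these markers in the rise was not tested.

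**Figure D3:**
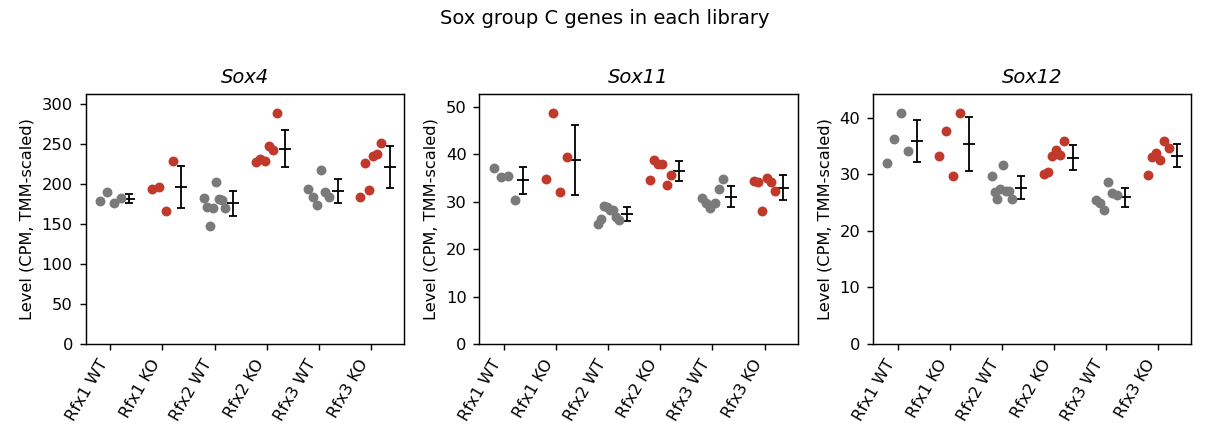
Level of Sox4, Sox11 and Sox12 (CPM, y axis from 0) in each library of the 6 groups, wild types in grey and knockouts in red, with mean ± SD as black bars. For Sox4 and Sox11 all 6 Rfx2 knockouts lie above all 8 Rfx2 wild types, and for Sox12 all 6 Rfx3 knockouts lie above all 6 Rfx3 wild types.

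The promoters of these 3 genes and of Foxn3 are shown because the 4 genes rose together in Rfx2 knockouts. The stretches run from 250 to 41 bases before the RefSeq start (GRCm38.p6), all on the minus strand, at chr13:28953740-28953949, chr12:27342759-27342968, chr2:152398087-152398296 and chr12:99450115-99450324. The Foxn3 stretch lies inside the annotated gene (99190078 to 99563582), so the start it precedes is an internal one. Which start these cells use was not tested. Capitals mark the only motif matches.
Sox4: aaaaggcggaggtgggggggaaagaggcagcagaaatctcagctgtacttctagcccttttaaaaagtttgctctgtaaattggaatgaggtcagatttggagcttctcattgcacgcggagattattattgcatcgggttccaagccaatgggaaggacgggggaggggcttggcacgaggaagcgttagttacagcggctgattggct
Sox11: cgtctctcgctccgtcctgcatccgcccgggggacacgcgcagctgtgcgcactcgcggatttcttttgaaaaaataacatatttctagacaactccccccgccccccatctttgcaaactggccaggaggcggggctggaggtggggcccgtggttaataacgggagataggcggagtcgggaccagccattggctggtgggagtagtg
Sox12: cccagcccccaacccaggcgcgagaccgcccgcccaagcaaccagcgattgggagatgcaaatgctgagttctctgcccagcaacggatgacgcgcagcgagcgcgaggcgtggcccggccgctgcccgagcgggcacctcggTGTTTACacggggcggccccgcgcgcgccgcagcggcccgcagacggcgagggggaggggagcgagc
Foxn3: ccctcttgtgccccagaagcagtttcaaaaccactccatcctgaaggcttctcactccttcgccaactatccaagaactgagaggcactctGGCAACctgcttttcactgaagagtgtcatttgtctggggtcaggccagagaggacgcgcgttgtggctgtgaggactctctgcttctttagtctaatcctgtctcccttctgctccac
The RefSeq table held 27 promoter windows of 300 bases for 19 of the 30 genes. On both strands, the X-box consensus of RFX factors was found in 0 of these windows, against 1.53% of all 32851 windows. The RFX core GTTGCC was found in the windows of Foxn3 and Sox5, and in 12.5% of all windows. The forkhead core TGTTTAC was found in that of Sox12, 101 to 107 bases before the start, and in 3.65% of all windows. In Foxn3 the RFX core lies on the opposite strand, 154 to 159 bases before the start, and so reads GGCAAC in the printed strand. The stretches have a GC content of 50.5% for Sox4, 60.5% for Sox11, 74.3% for Sox12 and 52.9% for Foxn3, with 8, 16, 29 and 4 CpG sites. The median GC content was 58.8% over the 27 windows and 52.4% over all windows.

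Rfx2 knockouts had 5 of 17 tested forkhead genes called higher and 0 called lower, or 29.4%, near the 32.3% called over all genes. Foxn3 (chromosome 12, 99190078 to 99563582), a repressor linked to the cell cycle checkpoint, was at 56.1 to 67.8 CPM (median 60.6) in knockouts and 44.9 to 52.1 (median 46.7) in wild types. No knockout fell within the wild-type range, and the log2 difference was 0.34 ± 0.05 (adjusted p = 0.000186, edgeR). Foxj2, of the same subfamily as the ciliogenesis factor Foxj1, was at 73.2 to 92.8 CPM (median 82.2) against 62.3 to 71.7 (median 68.3), also without overlap. Its log2 difference was 0.26 ± 0.05 (adjusted p = 0.00195, edgeR). With Sox4 and Sox11 these made 4 of 28 genes whose groups did not overlap, where 10.7% of all genes did so in this line. Foxn2 was at 24.3 to 28.3 CPM against 20.2 to 25.2, a log2 difference of 0.20 (adjusted p = 0.0101, edgeR). That call was lost in both subsets of replicates, with log2 differences of 0.20 (adjusted p = 0.111) in replicates 1 to 3 and 0.16 (0.0775) in replicates 4 and above.

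Of the 4 FoxO genes, Foxo3 was called in Rfx2 knockouts, and differences between the FoxO genes were not tested. Foxo3 was at 151 to 185 CPM (median 164) in knockouts and 116 to 163 (median 136) in wild types. Its log2 difference was 0.26 ± 0.07 (adjusted p = 0.0106, edgeR), and it kept its call under all 24 alternatives. For Foxo4 the log2 difference was 0.14 (adjusted p = 0.0787), for Foxo1 0.05 (0.253) and for Foxo6 -0.14 (0.515). Foxo4 passed in some alternatives, with an adjusted p of 0.0353 in the fit of all 6 groups, 0.0214 in replicates 4 and above and 0.0257 with a term for replicates 1 to 3. Foxp2, known from circuits of vocal learning, was low at 1.29 to 3.22 CPM against 0.901 to 1.75, with a log2 difference of 0.69 ± 0.20 (adjusted p = 0.0165, edgeR) and 5 of 6 knockouts above the wild-type mean.

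Sox13 and Sox9 fell in Rfx2 knockouts. Sox13 (chromosome 1, 133382303 to 133424377), a group D factor without an activation domain of its own, was at 15.5 to 19.3 CPM (median 16.5) against 19.2 to 25.9 (median 22.3). The groups met only at their edges, and the log2 difference was -0.40 ± 0.08 (adjusted p = 0.00168, edgeR). Its group D relatives Sox5 and Sox6 had log2 differences of 0.05 (adjusted p = 0.684) and 0.05 (0.285). Sox9 was at 305 to 343 CPM (median 338) against 329 to 394 (median 365), so the ranges overlapped. Its log2 difference of -0.15 ± 0.05 (adjusted p = 0.0369, edgeR) was not called with the replicate number as a block (-0.11, adjusted p = 0.19), nor when any of 11 of the 14 libraries was left out (adjusted p = 0.0539 to 0.108). Those were knockout replicates 1 to 6 and wild-type replicates 2, 5, 6, 7 and 8.

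Low genes of the set in the Rfx2 line included Sox3 and Sox18. Sox3, a progenitor factor of group B1, was at 1.22 to 2.66 CPM in knockouts and 1.54 to 4.03 in wild types. Its log2 difference of -0.56 ± 0.25 missed the threshold (adjusted p = 0.0958, edgeR) and passed with the replicate block (-0.65, adjusted p = 0.00462). Sox18 had 1 to 4 counts per knockout library and 5 to 13 per wild-type library, or 0.0332 to 0.122 against 0.152 to 0.375 CPM. The groups did not overlap. It was too low for the filter of this line, and the fit of all 6 groups, where it was kept, gave a log2 difference of -1.60 (adjusted p = 0.00548, edgeR). Summed endothelial markers were at 28.8 to 69.7 CPM in knockouts and 28.8 to 52.7 in wild types. Among these markers Emcn was at 0 in both groups and Cldn5 at 0 in the knockouts. Most of the sum was Kdr, at a mean of 41.0 CPM in knockouts and 32.8 in wild types (adjusted p = 0.343). Of the 3 markers tested by edgeR, the angiopoietin receptor gene Tek was called, lower in knockouts at 0.31 against 0.516 CPM (log2 difference -0.74 ± 0.26, adjusted p = 0.0394). Their part in the Sox18 result was not tested. Foxc2, a factor of mesenchyme and vessels, had 0 to 19 counts in the knockouts and 0 to 3 in the wild types, with 11, 14 and 19 counts in knockout replicates 2, 5 and 3. These 3 libraries and Rfx3 knockout replicate 4 (10 counts) are the 4 through which it met the count rule, so its levels are a description.

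In Rfx3 knockouts Sox12, Sox7 and Sox8 rose and Foxp1 fell. These were 4 of the 28 genes tested, or 14.3%, with 10.7% higher and 3.57% lower. Over all genes tested in this line, 23.5% were called (10.6% higher and 12.9% lower), so the called share of Fox and Sox genes was below the background. The median log2 difference was 0.04 over the 28 genes and 0.02 over all genes. Foxc2 and Foxp3 were not tested. Without knockout replicate 3 the number called was 9, with Foxk2, Foxm1, Foxo3, Sox4 and Sox18 added. In replicates 1 to 3 alone it was 0 by edgeR, with 6 genes at an unadjusted p below 0.05, and in replicates 4 to 6 alone it was 13. Over all genes, calls were also few in replicates 1 to 3 and many in replicates 4 to 6, as given at the end. No share over all genes is given for these settings, so nothing particular to the set is read from their counts.

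Sox12 was at 29.9 to 35.9 CPM (median 33.4) in Rfx3 knockouts and 23.7 to 28.6 (median 25.9) in wild types, with a log2 difference of 0.35 ± 0.06 (adjusted p = 0.0035, edgeR). Every knockout lay above every wild type. It was 1 of 28 genes with no overlap, against 15.5% of all genes in this line. Of the other group C genes, Sox4 differed by 0.21 (adjusted p = 0.1) and Sox11 by 0.08 (0.47).

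Sox8 (chromosome 17, 25565892 to 25570686), a group E factor of glia, was at 23.6 to 35.9 CPM (median 34.4) in Rfx3 knockouts and 16.5 to 26.4 (median 18.2) in wild types. Its log2 difference was 0.68 ± 0.15 (adjusted p = 0.00816, edgeR), while Sox9 of the same group differed by -0.06 ± 0.09 (adjusted p = 0.674). Beside Sox8, the oligodendrocyte lineage genes Olig1 (237 against 112 CPM, adjusted p = 0.00828) and Olig2 (66.6 against 33.0 CPM, adjusted p = 0.0143) were higher in the same knockouts. The 10 oligodendrocyte markers summed to 627 to 866 CPM in knockouts and 561 to 780 in wild types, 2 of 9 tested were called higher, and none was at 0. Cnp, the marker with the highest level, went the other way at 345 against 422 CPM (log2 difference -0.30, adjusted p = 0.159, edgeR). The other tested markers had positive differences. Their part in the Sox8 result was not tested.

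Sox7 (chromosome 14, 63943673 to 63950732), a factor of early vessels, had 9 to 78 counts per Rfx3 knockout library and 6 to 23 per wild-type library. In CPM this was 0.807, 0.818, 0.353, 2.07, 1.32 and 1.53 in knockout replicates 1 to 6, against 0.159 to 0.425 in wild types. Only knockout replicate 3 lay within the wild-type range, and the log2 difference was 2.04 ± 0.41 (adjusted p = 0.00566, edgeR). Sox7 met the low-count filter in all knockouts but not in all wild types. It was thus tested through the group where it was high, and its call is to be read with that limit. Endothelial markers summed to 32.7 to 54.8 CPM in knockouts and 46.6 to 56.6 in wild types, with Cldn5 at 0 in both. Most of the sum was Kdr, at a mean of 44.6 CPM in knockouts and 49.1 in wild types. Of 3 markers tested by edgeR, 0 were called and 0 had an unadjusted p below 0.05. Their part in the Sox7 result was not tested.

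Foxp1 (chromosome 6, 98925338 to 99522721), a repressor of the FoxP subfamily, was the single called decrease among these genes in Rfx3 knockouts. It was at 39.5 to 56.7 CPM (median 46.9) against 55.4 to 70.7 (median 63.4), so only the edges met. The log2 difference was -0.43 ± 0.10 (adjusted p = 0.00857, edgeR), lower in 6 of 6 knockouts. Foxp2 (0.46 ± 0.24, adjusted p = 0.183) and Foxp4 (-0.11 ± 0.07, 0.28) did not pass. Sox13 was at 13.7 to 21.1 CPM against 20.6 to 24.0 and missed the threshold (-0.28 ± 0.10, adjusted p = 0.0572). DESeq2 called it (adjusted p = 0.0275).

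**Figure D4:**
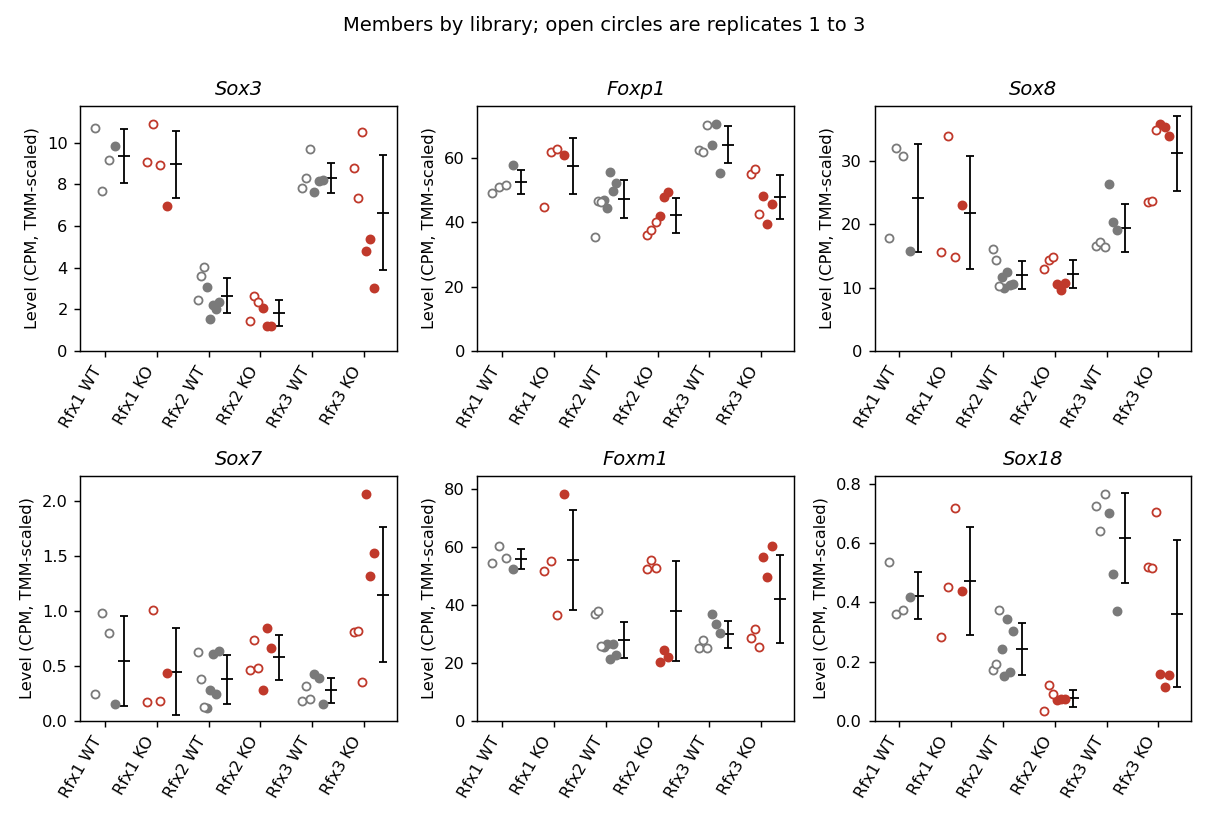
Level of Sox3, Foxp1, Sox8, Sox7, Foxm1 and Sox18 (CPM, y axis from 0) in each library of the 6 groups, wild types in grey and knockouts in red; open circles are replicates 1 to 3, filled ones replicates 4 and above, and black bars mean ± SD. Foxm1 is high in Rfx2 knockout replicates 1 to 3 and in Rfx3 knockout replicates 4 to 6, and Sox18 is low in all Rfx2 knockouts and in Rfx3 knockout replicates 4 to 6.

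Several genes of the set split by replicate number within the knockouts. No label calls the numbers a batch, and the split was chosen after the data were seen. Foxm1, the activator of mitotic genes, was at 52.3, 55.7 and 52.6 CPM in Rfx2 knockout replicates 1 to 3 and at 20.3, 24.4 and 22.0 in replicates 4 to 6. The wild types of that line were at 36.8, 38.1 and 26.0 in replicates 1 to 3 and at 21.4 to 26.4 in the rest. Over all libraries the log2 difference was 0.43 (adjusted p = 0.207, edgeR). Within replicates 1 to 3 it was 0.65 (adjusted p = 0.0428), and within the higher numbers -0.16 (0.242). Rfx3 knockouts showed the split the other way round, with Foxm1 at 28.5, 31.8 and 25.4 CPM in replicates 1 to 3 and 56.6, 49.6 and 60.3 in replicates 4 to 6. Rfx3 wild types were at 25.1, 28.0 and 25.3 CPM in replicates 1 to 3 and at 37.0, 33.4 and 30.3 in replicates 4 to 6. They thus split in the same direction as the knockouts of that line. The log2 differences of knockout against wild type were 0.13 (adjusted p = 0.509) and 0.71 (0.00218). Beside this, 14 known FoxM1 targets summed to 938 to 1020 CPM in Rfx2 knockout replicates 1 to 3 and 387 to 498 in replicates 4 to 6, and to 842 to 896 and 1010 to 1240 in the Rfx3 knockouts. In Rfx2 wild types they summed to 734 to 835 CPM in replicates 1 to 3 and 526 to 646 in the rest, a split in the same direction as in the knockouts. In Rfx3 wild types they summed to 816 to 907 and 809 to 1110 CPM, overlapping the knockouts in both sets.

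Sox18, Sox3 and Foxc1 were split in Rfx3 knockouts. Sox18 was at 0.516 to 0.706 CPM in knockout replicates 1 to 3 and 0.116 to 0.16 in replicates 4 to 6, against 0.64 to 0.767 and 0.371 to 0.702 in the wild types with those numbers. The log2 difference was -0.31 (adjusted p = 0.48, edgeR) within the first set and -1.88 (0.00815) within the second. In the second set Sox18 met the low-count filter only through the wild types, where it was high, so that difference is a description. Sox3 was at 7.36 to 10.5 CPM and 3.01 to 5.39, against 7.65 to 9.71, with log2 differences of 0.05 (adjusted p = 0.879) and -0.86 (0.0192). Foxc1, a factor of meningeal development, was at 2.5 to 2.78 CPM and 4.97 to 5.12, against 2.66 to 3.16, with log2 differences of -0.04 (adjusted p = 0.866) and 0.79 (0.00417). Sox21, like Sox18 and Sox3, was higher in the lower-numbered knockouts, at 90.7 to 96.7 CPM in replicates 1 to 3 and 67.5 to 79.6 in replicates 4 to 6, against 70.2 to 76.0 in wild types. Whether the difference itself depends on the replicate set was not tested.

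Knockout replicate 3 of the Rfx3 line had low levels of many long transcripts. Sox6 was at 96.7 CPM there and at 185 to 245 in the other 5 Rfx3 knockouts, Foxk1 at 29.1 against 59.5 to 74.2, and Sox5 at 5.88 against 10.3 to 15.1. Foxj3 (35.2 against 58.1 to 60.9) and Foxn3 (24.4 against 40.1 to 48.1) were also low. Not every gene followed its length. Foxp2, with the longest exonic sequence of the set (16346 bases), was higher there at 2.71 CPM against 1.54 to 2.37. Foxp1 (13751 bases) was within the range of the others at 42.5 against 39.5 to 56.7, and the shorter Sox7 (3299 bases) was low at 0.353 against 0.807 to 2.07. Over the 28 genes the log2 ratio of this library to the mean of the other 5 had a Spearman correlation of -0.554 with exonic length, and over 14333 genes -0.621. The genes share the library and its depth, so these are descriptions. The median log2 ratio was -0.69 for genes with at least 10000 exonic bases and 0.45 for those under 3000. The 4 genes called in Rfx3 knockouts were called without this library too.

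**Figure D5:**
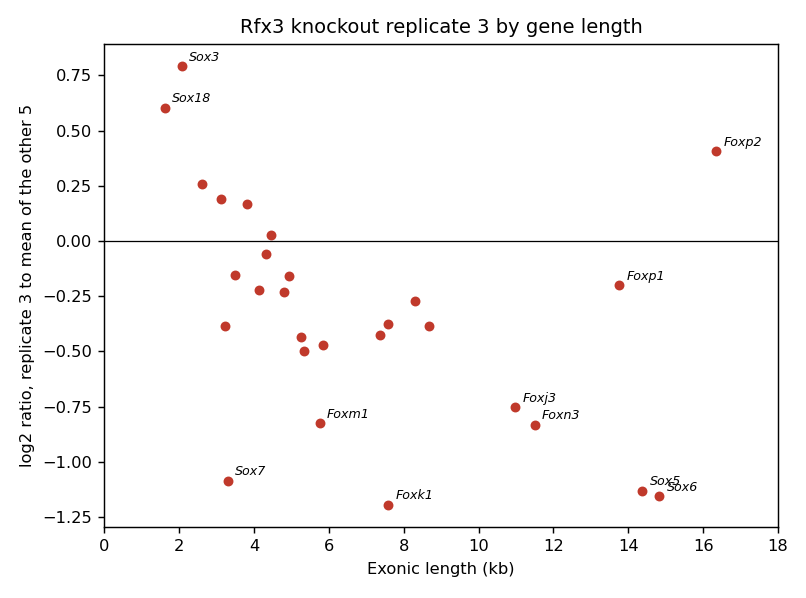
The log2 ratio of Rfx3 knockout replicate 3 to the mean of the other 5 Rfx3 knockouts (y axis, 0.5 CPM added to both) against exonic length in kb (x axis), 1 point per gene tested. Sox5, Sox6, Foxk1, Foxj3, Foxn3 and the shorter Sox7 lie far below 0, and Sox3 and the long Foxp2 above it, with a Spearman correlation of -0.554.

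In Rfx1 knockouts no gene of the set passed the test. Of 26 genes tested with edgeR, 0 were called and 0 had an unadjusted p below 0.05; DESeq2 and limma-voom also called 0. Over all genes, 0.00723% were called in this line (1 of 13830, with 281 at an unadjusted p below 0.05). Rfx1 itself was not called either, at a log2 difference of -1.4 (adjusted p = 0.0687, edgeR), although its groups did not overlap. The absence of calls here is thus weak evidence of no difference. The median log2 difference was 0.02 over the 26 genes and 0.00 over all genes. No gene of the set had groups without overlap, where 1.48% of all genes did. Foxc2, Foxp3, Sox7 and Sox18 were not tested. The smallest p belonged to Foxn2, at 22.7, 19.7, 20.6 and 24.0 CPM in knockout replicates 1 to 4 and 20.5, 20.2, 19.7 and 18.2 in wild types (0.15 ± 0.08, adjusted p = 0.9998, edgeR). Sox11 was at 34.9, 48.8, 32.0 and 39.4 CPM against 37.1, 35.2, 35.5 and 30.4, so the groups overlapped. The largest difference in size was 0.27, for Foxr2 at under 1 CPM.

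Knockout effects were then compared between lines in a fit of all 34 libraries, with 29 genes of the set tested. Between Rfx2 and Rfx3, 0 genes were called by edgeR, 8 had an unadjusted p below 0.05, and 3.84% of all genes were called. Sox11 came nearest, with an effect larger by 0.32 ± 0.10 in Rfx2 (adjusted p = 0.065). DESeq2 called it (adjusted p = 0.0327), as did edgeR without Rfx1 knockout replicate 2 (0.0255) or 3 (0.0431). Foxc1 was called without Rfx2 knockout replicate 5 (-1.01, adjusted p = 0.0395). The Sox8 effects of 0.01 in Rfx2 and 0.68 in Rfx3 differed by -0.66 ± 0.26, which did not pass (adjusted p = 0.167). Between Rfx1 and Rfx2, 0 genes were called by edgeR and by DESeq2, with 7 at an unadjusted p below 0.05 and 0.829% of all genes called.

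Between Rfx1 and Rfx3, 2 genes were called, where 7.75% of all genes were. The Foxp1 effect (0.13 in Rfx1 and -0.43 in Rfx3) was higher in Rfx1 by 0.56 ± 0.16 (adjusted p = 0.0304, edgeR), with 44.7, 61.8, 63.0 and 61.1 CPM in Rfx1 knockout replicates 1 to 4 and 49.3, 51.1, 51.6 and 57.9 in their wild types. The Sox12 effect (-0.02 and 0.35) was lower in Rfx1 (difference -0.38, adjusted p = 0.0336), with 33.3, 37.7, 29.8 and 40.8 CPM against 32.1, 36.3, 40.9 and 34.2. The Foxp1 call was lost without any of 9 libraries (adjusted p = 0.0508 to 0.0981): Rfx1 knockouts 2 and 3, Rfx1 wild types 1, 2 and 3, Rfx3 knockouts 5 and 6, and Rfx3 wild types 3 and 5. The Sox12 call was lost without any of 7 libraries (0.052 to 0.126): Rfx1 knockouts 1 and 3, Rfx1 wild types 2 and 3, Rfx3 knockouts 5 and 6, and Rfx3 wild type 3.

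Genes that work with these factors were read from lists. Over all genes, 32.3% were called in Rfx2 knockouts and 23.5% in Rfx3 knockouts, and nothing particular to a list is read from its counts. Of 12 genes of insulin and PI3K signalling that control FoxO, 2 rose in Rfx2 knockouts (Insr, Pik3r1) and 2 fell (Akt2, Sgk1), with a median of 0.03. In Rfx3 knockouts only Akt1 was called (0.21, adjusted p = 0.0121, edgeR). The insulin receptor gene Insr was at 122 against 102 CPM in the Rfx2 line (adjusted p = 0.00162) and the kinase gene Sgk1 at 45.5 against 59.5 (0.0165). Of 16 known FoxO targets, 2 rose and 3 fell in Rfx2 knockouts, and 3 rose and 1 fell in Rfx3 knockouts. Txnip, an inhibitor of thioredoxin, fell in both, by 0.37 (adjusted p = 0.0344) and by 0.85 (0.0123), and the cyclin gene Ccng2 rose in both, by 0.16 (0.0146) and 0.32 (0.0159). Of 14 FoxM1 targets, Nek2 fell in Rfx2 knockouts (-0.55, adjusted p = 0.044), Birc5 rose in Rfx3 knockouts (0.67, adjusted p = 0.0421), and the others did not pass.

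Among 11 POU and other partners of Sox factors, 3 rose and 1 fell in Rfx2 knockouts, and 2 rose in Rfx3 knockouts. Pou3f3, a neural POU factor, rose in both lines, from 192 to 234 CPM (adjusted p = 0.00625, edgeR) and from 190 to 246 CPM (0.00238). Tcf7l1, a repressor in Wnt signalling, rose in Rfx2 knockouts from 45.3 to 59.9 CPM (0.00252). Of 11 corepressors, 2 rose and 1 fell in Rfx2 knockouts, and 1 of each in Rfx3 knockouts, with Sin3a called lower in both. Of 9 gliogenic factors tested, 4 rose (Nfia, Nfix, Id1, Id3) and 2 fell (Hes1, Id4) in Rfx2 knockouts, and 4 rose in Rfx3 knockouts (Hes1, Id1, Id2, Id3). Nfia, a factor of glial differentiation, rose from 230 to 272 CPM (adjusted p = 0.000119) in the Rfx2 line, and Id3 rose from 46.0 to 110 CPM (0.0258) in the Rfx3 line. In Rfx1 knockouts 0 of the 73 tested genes of these 6 lists were called by edgeR, with 3 at an unadjusted p below 0.05.

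Of the genes of the set, 3 lie on chromosome 17 with Rfx2 and 1 lies on chromosome 8 with Rfx1. Foxp4 is 8.85 Mb from Rfx2, Sox8 31.21 Mb and Foxn2 31.61 Mb, and Foxn2 alone of these was called in Rfx2 knockouts. Foxc2 is 37.02 Mb from Rfx1.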

How the data were processed

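RNA of 34 samples in 6 groups was sequenced, and the groups come from the sample titles. What the authors deposited is a table of raw counts by Ensembl identifier, not normalized. Per the submitters' processing notes, CASAVA 1.8.2, STAR 2.4 and featureCounts 1.4.6 were used with GRCm38; strand setting and annotation release: not given in the sources used here. Symbols, positions and exonic lengths came from GENCODE M21, which matched 21583 of 21647 identifiers; 0.0341% to 0.0417% of a library's counts had no match.

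R 4.3.3 was used. Each line had its own fit in edgeR 4.0.16 (filterByExpr at its defaults of 10 counts and a total of 15, TMM scaling, two-sided quasi-likelihood test). A gene was called at a Benjamini-Hochberg adjusted p below 0.05 over all genes kept. Lines were compared by contrasts in a fit of all 34 libraries. Levels are CPM. Alternatives were DESeq2 1.42.0, limma-voom 3.58.1, RLE scaling, no filter, the replicate number as a block, a term for Y-linked counts, a fit of all groups, subsets of replicates and leaving out each library; the subsets 1 to 3 and 4 to 6 and a term for replicates 1 to 3 were added after seeing the data. The fits were tested on simulated data.

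In the Rfx2 line, same-numbered knockouts and wild types deviated together (correlations of 0.139 to 0.578 in 6 pairs). The best-matching wild type bore the same number for knockouts 1, 2 and 4, but not for 3, 5 and 6. A pairing by number is thus possible there but not established. The main fit of the line was unpaired, and the fit with the replicate block is an alternative. The correlations come from the data, since the labels do not describe a pairing.

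The genes and lists were chosen with earlier results of these data known. Named with values were genes called in any line or between lines, the 10 with the highest wild-type level per length, those with the smallest p where none was called, and those next to the count rule. Others were chosen after their values were seen, such as Foxm1, Sox18, Sox3, Foxc1, Sox21 and the genes picked out of the lists. One gene of the set and one of the lists are not reported here. Promoters came from RefSeq (GRCm38.p6) and were matched by symbol.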

Additional observations from a re-analysis of the deposited data

Results flagged for a closer look

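For 19 genes with a call or a high level, 114 sets of libraries (a gene in a group) were checked for a sample far from the rest, and 11 had one. These sets share libraries and are not independent, and the 11 were not weighed against a chance rate. In Rfx3 knockout replicate 3, Foxk1 (29.1 CPM), Foxk2 (60.5 CPM), Foxn3 (24.4 CPM), Foxo1 (59.1 CPM) and Sox9 (278 CPM) were each far below the other 5 knockouts. In Rfx2 knockout replicate 6, Sox4 was far above the other 5 at 289 CPM, and Foxk1 (69.0 CPM) and Sox9 (305 CPM) were far below. Sox13 was far above in Rfx3 wild-type replicate 3 (24.0 CPM). In Rfx1 knockouts, Foxp1 was far below in replicate 1 (44.7 CPM) and Foxp2 far above in replicate 2 (3.02 CPM).

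The knockout effects of Foxp1 and Sox12 differed between the Rfx1 and Rfx3 lines by the test of the difference, by 0.56 and -0.38 on the log2 scale.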

How the results depend on the processing

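The number of genes called in Rfx2 knockouts (10) was 9 to 14 when a library was left out and 5 with replicates 1 to 3 only. In Rfx3 knockouts (4) it was 4 to 9 when a library was left out, 0 with replicates 1 to 3 only, 13 with replicates 4 to 6 only, 8 with a term for replicates 1 to 3 and 8 in the fit of all 6 groups. In Rfx1 knockouts it was 0 in every alternative. Between Rfx2 and Rfx3 (0) it was 1 with DESeq2 and 0 to 1 when a library was left out, and between Rfx1 and Rfx3 (2) it was 3 with DESeq2 and 0 to 4. Fewer samples are fitted in the subsets. For the other settings the cause was not tested. Calls over all genes also varied between the settings for which they are given below, so nothing particular to the set is read from these counts.

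Of 449 alternative values of 19 named results, 408 kept the outcome of the main fit, called or not, 41 lost a call and 0 changed direction. Foxk2, Foxn2 and Sox11 in Rfx1 knockouts, with 15 alternatives each, are among the 19 and had no call to lose. Sox4, Sox11, Foxn3 and Foxo3 in Rfx2 knockouts kept their call in every alternative, while Sox9 also lost it in the fit of all 6 groups (adjusted p = 0.304) and with replicates 1 to 3 only (0.86).

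With the replicate block, 10 genes of the set were called in Rfx2, 4 in Rfx3 and 0 in Rfx1; it changed no call beyond those of Sox9 and Sox3 within lines. The correlations of same-numbered samples were -0.065 to 0.332 in Rfx1 and -0.332 to 0.198 in Rfx3, so the numbers were not taken to pair samples there. Between Rfx1 and Rfx3 the block ended the Sox12 call (adjusted p = 0.0762) and gave one for Sox7 (0.0493).

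Over all genes, calls in Rfx3 knockouts numbered 3374, against 2205 with the replicate block and 5367 in the fit of all 6 groups. With replicates 1 to 3 only they numbered 257, and with replicates 4 to 6 only 6041. Leaving out a library gave 2139 to 5549. In Rfx2 knockouts 4626 became 1050 with replicates 1 to 3 only and 3974 to 5270 when a library was left out. In Rfx1 knockouts leaving out a library gave 0 to 9. For the differences between lines it gave 412 to 961 for Rfx2 and Rfx3 and 286 to 2041 for Rfx1 and Rfx3. Counts under about 10 per library, as for Foxc2, Foxp3 and Sox18, limit what can be tested.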
